A study of Mus musculus with 12 samples.

Results

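The VEGF and angiopoietin axis is described here through 10 genes, the ligand genes Vegfa, Vegfb, Vegfc, Angpt1 and Angpt2 and the receptor genes Kdr, Flt1, Flt4, Tek and Nrp1. They were chosen by name, and each was taken from its row among the 37750 rows of the deposited table. Nrp1 shares a row with the microRNA gene Mir1903 that lies inside it, and its values are those of the joined row. The RNA came from Ad/NICD mice of a 129 x C57BL/6 background, which carry the active intracellular domain of Notch1 in adipocytes. The WAT group is 4 libraries of white adipose tissue at 3 weeks of age, and the LPS group is 8 libraries of liposarcoma, a malignant tumour of the fat lineage, at 9 to 12 months of age. Both groups carry the transgene, no group without it was analysed here, and the sources used here do not name the promoter that drives it. Age and tissue change together, so neither can be told apart from the other in any comparison of the groups. The labels call the libraries biological replicates and give no animal numbers or dissection batches, so p-values measure the spread between these libraries.

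VEGF ligands are secreted proteins that make endothelial cells divide, migrate and let fluid through. VEGFA acts mainly on the receptor kinase KDR, while FLT1 binds VEGFA and VEGFB tightly and is often described as a decoy, and VEGFC acts on FLT4, the receptor of lymphatic vessels. Neuropilin 1, the product of Nrp1, is a co-receptor without a kinase domain that is found on endothelial cells and on many mesenchymal cells. Angiopoietin 1 activates the receptor TEK, also called TIE2, and steadies vessels, while angiopoietin 2 mostly opposes it. In fat, adipocytes are a known source of VEGFA.

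Levels are FPKM, fragments per kilobase of transcript relative to the fragments mapped in that library, so genes can be set beside each other. FPKM summed to between 771665 and 996090 per library. The files used here give no fragment totals, so values carry no counting interval. Depth was estimated from the low values of 2158 genes with a single transcript, taken as about 1 fragment. By that estimate WAT 1 was sequenced 2.60 times as deeply as LPS 1, and the other libraries lay between them. The estimate could not be checked against counts. LPS 5 stood apart: its median ratio to the geometric mean of all libraries was 0.806, against 0.988 to 1.05 in the other 11, so most of its genes read low as deposited. Summed over 12 mature adipocyte markers, WAT libraries held 11648 to 14043 FPKM and LPS libraries 119 to 2168 FPKM. All 12 were called lower, but Fabp4 alone made up 2000 of the 2168 FPKM in LPS 1. Adipoq lay between 514 and 631 FPKM in WAT and between 0.0433 and 4.26 FPKM in LPS. The upper end of the tumour sums therefore reflects mostly Fabp4. Sums over 12 pericyte markers lay between 254 and 305 FPKM in WAT libraries and between 3964 and 8496 FPKM in tumours. In whole tissue, fewer cells of a type and less RNA per cell cannot be told apart.

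Of the 10 genes, all of which passed the filter of at least 1 FPKM in at least 4 libraries, 4 were lower and 2 higher in LPS. Vegfa, Vegfb, Kdr and Tek fell, Flt4 and Nrp1 rose, and Vegfc, Angpt1, Angpt2 and Flt1 were not called. The test was limma on log2(FPKM + 1) over 14821 rows, two-sided, with a Benjamini-Hochberg adjusted p below 0.05. Over all tested rows, 46.0% were called, 18.9% higher and 27.0% lower, so a count of 6 among 10 lies near the background of this comparison. The groups did not overlap in 4 of the 10 genes, Vegfa, Vegfb, Kdr and Flt4, and in 32.6% of all tested rows. The median log2 difference of the 10 genes was -0.58, against -0.05 over all tested rows. Because 1 FPKM was added before taking logs, differences of genes at low levels come out too small.

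**Figure D1:**
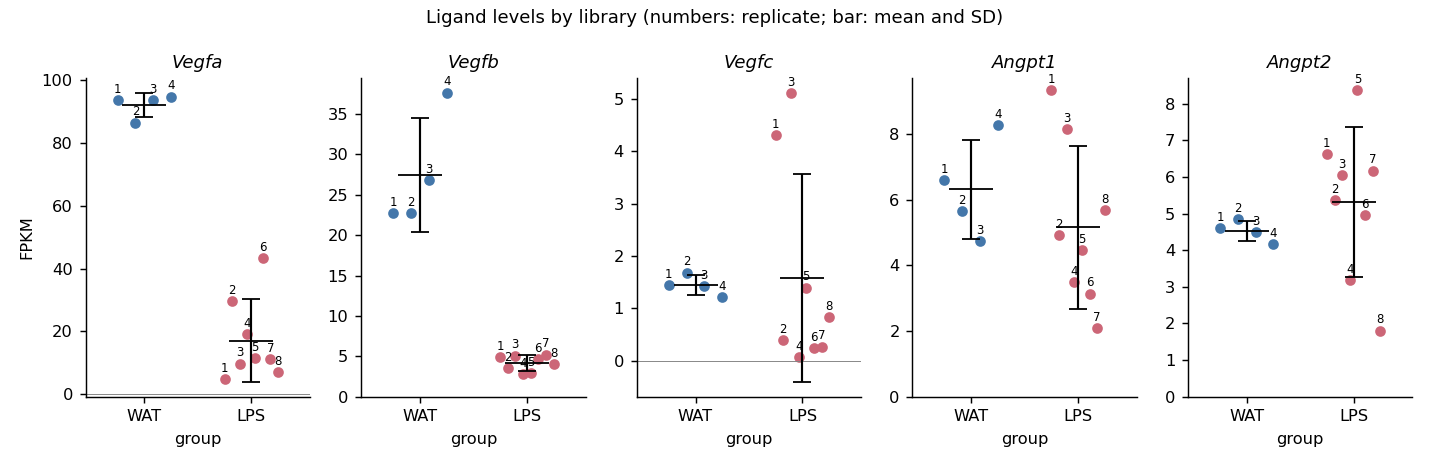
FPKM of the 5 ligand genes (vertical axes, linear, a scale for each gene) in 4 WAT and 8 LPS libraries, one point per library with its replicate number, and the mean with its SD. All LPS points lie below all WAT points for Vegfa and Vegfb, while the groups overlap for Vegfc, Angpt1 and Angpt2.

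Vegfa, the main angiogenic ligand (chromosome 17, 46016993 to 46032377 in the table, counted from 1, on GRCm38), was 5.41-fold lower in LPS. WAT 1 to WAT 4 held 93.7, 86.5, 93.8 and 94.9 FPKM of it. The tumours ran from 4.88 FPKM in LPS 1 over a median of 11.3 FPKM to 43.5 FPKM in LPS 6. No tumour reached the lowest WAT library, and the tumours differed among themselves far more than the WAT libraries did. WAT averaged 92.2 ± 3.82 FPKM (SD, n = 4) and LPS 17.1 ± 13.3 FPKM (SD, n = 8), and the log2 difference was -2.67 ± 0.45 (SE; limma adjusted p = 0.000316). Adipocyte markers fell in the same libraries, and their part in the fall of Vegfa was not tested.

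Vegfb, a ligand of FLT1 that is abundant in fat and muscle (chromosome 19, 6982473 to 6987651), was 6.63-fold lower. It measured 22.8, 22.7, 26.8 and 37.7 FPKM in WAT 1 to WAT 4. In the tumours it lay between 2.78 and 5.23 FPKM, with a median of 4.33 FPKM. The fall was even across tumours: the coefficient of variation in LPS was 23.7% for Vegfb against 77.7% for Vegfa. The means were 27.5 ± 7.05 and 4.15 ± 0.983 FPKM, a log2 difference of -2.46 ± 0.18 (limma adjusted p = 2.13e-07).

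Vegfc, the lymphatic ligand (chromosome 8, 54077532 to 54186454), was the scarcest of the 10 genes by mean level in both groups and the most uneven in tumours. WAT 1 to WAT 4 held 1.44, 1.68, 1.42 and 1.22 FPKM. LPS 3 and LPS 1 held 5.11 and 4.31 FPKM, above every WAT library, and LPS 5 held 1.40 FPKM. After median-ratio scaling LPS 5, whose genes read low as deposited, held 1.73 FPKM, above the WAT maximum of 1.61 FPKM. The other 5 tumours lay at 0.0718 to 0.826 FPKM, below every WAT library. The lowest value, in LPS 4, was worth about 2.59 fragments by the measure of depth above. The group means of 1.44 ± 0.191 and 1.58 ± 1.99 FPKM therefore describe no typical tumour, and the log2 difference of -0.24 ± 0.45 was not called (limma adjusted p = 0.698). Its sign turned after quantile normalization (0.08).

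As a share of the summed FPKM of Vegfa, Vegfb and Vegfc within a library, Vegfa held 70.9% to 79.5% in WAT and 34.6% to 89.9% in LPS. LPS 1 and LPS 3 were the tumours with the smallest Vegfa share, 34.6% and 48.8%. They were also those with the largest Vegfc share, 30.5% and 25.6%, against at most 8.86% in the other tumours and 1.52% in WAT. The summed level of these 3 ligands lay between 111 and 134 FPKM in WAT and between 11.8 and 48.4 FPKM in tumours, without overlap.

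Angpt1, the agonist of TEK (chromosome 15, minus strand), was not called. WAT 1 to WAT 4 had 6.60, 5.64, 4.74 and 8.27 FPKM. The tumours ran from 2.098 FPKM in LPS 7 over a median of 4.69 FPKM to 9.33 FPKM in LPS 1. The groups overlapped, with means of 6.31 ± 1.51 and 5.16 ± 2.49 FPKM and a log2 difference of -0.33 ± 0.29 (limma adjusted p = 0.383). In GENCODE M21, 737 exon bases of Angpt1 are shared with the antisense gene Gm17473, whose own row lay at or below 0.274 FPKM in all 12 libraries.

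Angpt2, the context-dependent antagonist (chromosome 8, 18690263 to 18741562 in GENCODE M21, minus strand), was also not called. It held 4.60, 4.84, 4.48 and 4.17 FPKM in WAT 1 to WAT 4. The tumours spread around that band: 6 lay above every WAT library, up to 8.36 FPKM in LPS 5, and LPS 4 and LPS 8 lay below, at 3.18 and 1.80 FPKM. The means were 4.52 ± 0.278 and 5.31 ± 2.05 FPKM, a log2 difference of 0.11 ± 0.27 (limma adjusted p = 0.758). Angpt2 lies within the gene Mcph1 on the opposite strand, and the table gives both rows the bounds of Mcph1. They share 0 exon bases, and the row of Mcph1 reached 10.5 FPKM. The sources used here do not say whether counting used strand.

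**Figure D2:**
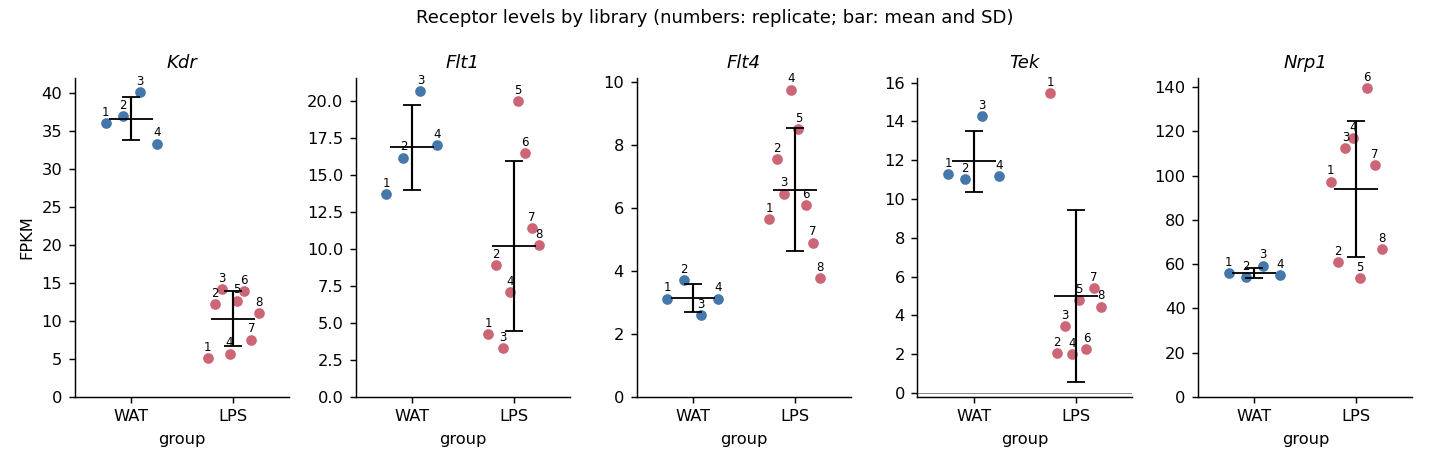
FPKM of the 5 receptor genes (vertical axes, linear, a scale for each gene) in the same libraries, with replicate numbers, means and SDs. Kdr is lower and Flt4 higher in every LPS library than in any WAT library, LPS 1 is the tumour above all WAT libraries for Tek, and LPS 5 is the tumour below all WAT libraries for Nrp1.

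Kdr, the main signalling receptor of VEGFA (chromosome 5, 75932827 to 75978458), was 3.56-fold lower in LPS. WAT 1 to WAT 4 held 36.0, 36.9, 40.2 and 33.4 FPKM, and the tumours ran from 5.13 FPKM in LPS 1 over a median of 11.6 FPKM to 14.2 FPKM in LPS 3. The groups lay far apart without overlap. LPS 5 is the library whose genes read low. After median-ratio scaling it held the highest Kdr of the tumours, 15.7 FPKM against 13.6 FPKM in LPS 3, still below the WAT minimum of 32.3 FPKM. The means were 36.6 ± 2.81 and 10.3 ± 3.67 FPKM, a log2 difference of -1.81 ± 0.25 (limma adjusted p = 6.35e-05).

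Flt1, which binds VEGFA and VEGFB (chromosome 5, 147561604 to 147726011), was not called over all libraries. WAT 1 to WAT 4 had 13.7, 16.2, 20.7 and 17.0 FPKM. In LPS it ran from 3.27 FPKM in LPS 3 over a median of 9.57 FPKM to 20.03 FPKM in LPS 5, and 6 of 8 tumours lay below every WAT library. The log2 difference was -0.84 ± 0.37 (limma adjusted p = 0.0833). Without LPS 5, the tumour with the highest level, the difference was -0.995 and Flt1 was called lower (limma adjusted p = 0.0295). LPS 5 is also the library whose genes read low. After median-ratio scaling it held 24.8 FPKM of Flt1, above the WAT maximum of 20.2 FPKM. The row sums all transcripts of the locus, so the membrane receptor and its soluble forms cannot be told apart.

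Flt4, the receptor of VEGFC (chromosome 11, 49609263 to 49652739), was 2.098-fold higher in LPS. It held 3.12, 3.70, 2.60 and 3.12 FPKM in WAT 1 to WAT 4 and 3.77 to 9.75 FPKM in the tumours, with a median of 6.27 FPKM. Every tumour lay above every WAT library, LPS 8 only just. The means were 3.14 ± 0.447 and 6.58 ± 1.95 FPKM, a log2 difference of 0.84 ± 0.20 (limma adjusted p = 0.00391). Lymphatic endothelial markers went the other way. Among the 4 tested, 3 were lower in LPS and none higher, against 27.0% lower and 18.9% higher over all tested rows. Ccl21a, a chemokine of lymphatic vessels, measured 55.1 ± 21.5 FPKM in WAT and 0.324 FPKM on average in LPS. Lyve1, a hyaluronan receptor of lymphatic vessels and some macrophages, fell from 14.5 to 1.81 FPKM. The 7 listed lymphatic markers summed to 58.8 to 103 FPKM in WAT libraries and in tumours to 0.672 to 13.4 FPKM, and the defining factor Prox1 lay below the filter. Reln, the other tested marker, was not called. It held 8.84 FPKM in LPS 2 against at most 3.05 FPKM in WAT, and lay below every WAT library in 7 tumours. Flt4 thus rose in tumours where the sum of these markers was low, and the cells that carried its RNA were not identified.

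Tek, the angiopoietin receptor (chromosome 4, 94739289 to 94874976), was lower in 7 of 8 tumours than in any WAT library. WAT 1 to WAT 4 held 11.3, 11.0, 14.3 and 11.2 FPKM. LPS 1 held 15.5 FPKM, the highest value of all libraries, and the other tumours 2.01 to 5.39 FPKM. The means were 11.9 ± 1.56 and 4.98 ± 4.44 FPKM, a log2 difference of -1.34 ± 0.38 (limma adjusted p = 0.0115). Without LPS 1 the difference was -1.59 (limma adjusted p = 0.000141). With replicates 1 to 4 of each group alone, where LPS 1 is 1 of 4 tumours, Tek was not called (limma adjusted p = 0.0579).

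Nrp1, the VEGF and semaphorin co-receptor (chromosome 8, 128359073 to 128505462), was the most abundant of the 10 genes in LPS. Its row measured 55.8, 54.3, 59.4 and 54.9 FPKM in WAT 1 to WAT 4. The tumours ran from 53.7 FPKM in LPS 5 over a median of 101 FPKM to 140 FPKM in LPS 6, and 7 of 8 lay above every WAT library. The means were 56.1 ± 2.26 and 94.0 ± 30.6 FPKM, 1.68-fold higher, with a log2 difference of 0.66 ± 0.24 (limma adjusted p = 0.0367). LPS 5 is the library whose genes read low: after median-ratio scaling it held 66.6 against at most 58.0 FPKM in WAT, all 8 tumours lay above WAT, and the adjusted p was 0.0130. As deposited the call is narrow. It was lost without WAT 1, WAT 2, WAT 3 or WAT 4 (limma adjusted p = 0.0801, 0.0837, 0.0699 and 0.0846) and without LPS 1, LPS 3, LPS 4, LPS 6 or LPS 7 (0.0531, 0.0580, 0.0600, 0.0537 and 0.0550).

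The order of levels changed with these differences. In WAT it ran Vegfa, Nrp1, Kdr, Vegfb, Flt1, Tek, Angpt1, Angpt2, Flt4 and Vegfc by mean FPKM. Each gene lay above the next in all 4 libraries, except that Kdr lay above Vegfb in 3 of 4. In LPS, Nrp1 came first in all 8 tumours. Below it the order was not firm: Vegfa exceeded Kdr in 4 of 8 tumours, Kdr exceeded Flt1 in 4 of 8, and Angpt2, Angpt1, Tek and Vegfb, with means of 5.31, 5.16, 4.98 and 4.15 FPKM, exceeded their next neighbour in 4 or 5 of 8 (Vegfb exceeded Vegfc in 7 of 8).

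The 3 VEGF receptor kinases were present in other proportions in LPS. Of the summed FPKM of Kdr, Flt1 and Flt4 within a library, Kdr held 62.4% to 68.1% in WAT and 25.2% to 59.4% in LPS. The Flt4 share was 4.11% to 6.51% in WAT and 15.1% to 43.3% in LPS, largest in LPS 4 and LPS 1. The Flt1 share overlapped, at 26.0% to 32.6% in WAT and 13.7% to 48.6% in LPS. The sum of all 3 lay between 52.9 and 63.4 FPKM in WAT and between 15.0 and 41.2 FPKM in tumours.

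Endothelial genes did not all follow Kdr. Of 18 tested endothelial markers, 10 were lower and 2 higher in LPS, against 27.0% and 18.9% of all tested rows. Their median log2 difference was -1.02. Pecam1 and Cdh5, adhesion molecules of endothelial junctions, had log2 differences of -1.24 ± 0.29 and -1.16 ± 0.36 (limma adjusted p = 0.00334 and 0.0181), and Cdh5 was not called without WAT 3 (0.0560). Tie1, the orphan partner of TEK, was not called, at 19.2 ± 2.15 and 20.9 ± 5.97 FPKM. Cldn5, a tight junction protein, fell from 57.8 to 12.1 FPKM and Cd34 from 61.1 to 18.7 FPKM. Emcn, a sialomucin of capillaries and veins, rose from 10.8 to 54.4 FPKM and Esam, a junction protein, from 37.2 to 154 FPKM. Summed over the 18 markers, WAT held 362 to 482 FPKM and LPS 293 to 520 FPKM, so the groups overlapped in this sum. The sum includes the 2 genes that rose. Esam alone made up 91.8 to 234 FPKM of it per tumour, against at most 44.7 FPKM in a WAT library. Emcn made up 24.2 to 80.3 FPKM per tumour, against at most 11.2 FPKM. The overlap therefore does not mean that the markers held similar levels, since 10 of them were lower.

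**Figure D3:**
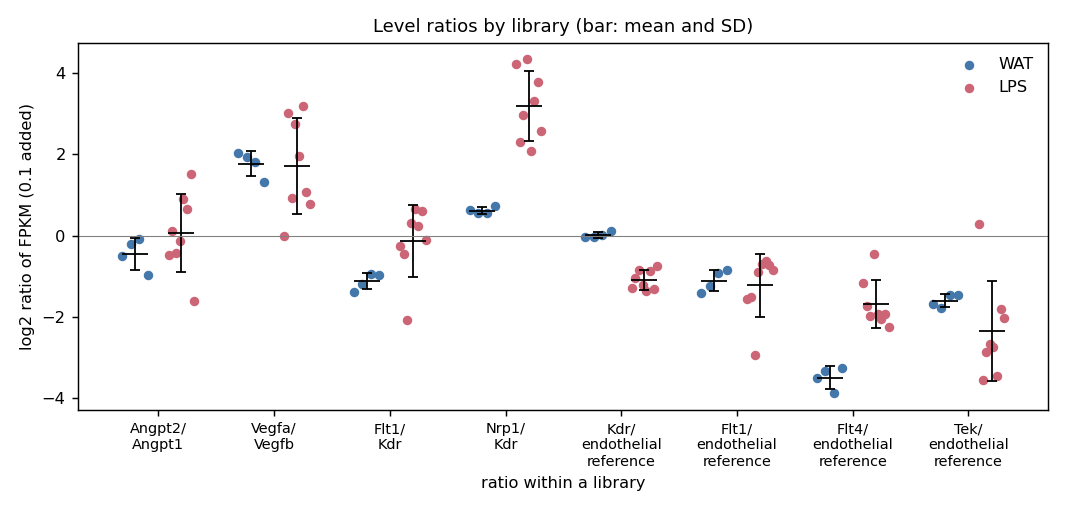
Log2 of 8 ratios of FPKM within a library (0.1 FPKM added to each level), one point per library, with the mean and SD of 4 WAT (blue) and 8 LPS (red) libraries. The groups do not overlap for Nrp1/Kdr, Kdr/endothelial reference and Flt4/endothelial reference, and LPS 1 stands above WAT for Tek/endothelial reference.

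Ratios within a library do not depend on scaling between libraries. The endothelial reference was the geometric mean of Pecam1, Cdh5 and Tie1, and 8 ratios were tested by exact two-sided permutation of the group labels, 495 arrangements in all, adjusted over the 8. The smallest p these arrangements can give is 0.00202. The 3 reference genes did not vary together within LPS: Pecam1 and Cdh5 correlated at 0.94, but Tie1 at -0.02 with Pecam1 and -0.15 with Cdh5. Relative to the reference, Kdr stood at 1.01 in WAT and 0.470 in LPS (geometric means), and all 8 tumours lay below all WAT libraries. That log2 difference of -1.10 had an exact permutation p = 0.00202 (adjusted 0.00539) and was smaller against one reference gene, -0.64 with Pecam1 and -0.70 with Cdh5 (adjusted 0.0377 with either). Flt4 stood at 0.0886 and 0.310 relative to the reference, a log2 difference of 1.81 with all 8 tumours above WAT (exact permutation p = 0.00202, adjusted 0.00539). Nrp1 stood at 1.53 and 9.19 times the level of Kdr, again without overlap, a log2 difference of 2.58 (exact permutation p = 0.00202, adjusted 0.00539).

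The other 5 ratios were not called. The ratio of Angpt2 to Angpt1, often read as a balance of vessel destabilising and stabilising signals, was 0.735 in WAT and 1.05 in LPS. It ran from 0.329 in LPS 8 to 2.85 in LPS 7 (exact permutation p = 0.343, adjusted 0.458). Vegfa stood at 3.42 and 3.27 times Vegfb, with 0.989 to 9.17 in single tumours (exact permutation p = 0.899, adjusted 0.899). Flt1 stood at 0.459 and 0.910 times Kdr, higher in 7 of 8 tumours than in any WAT library (exact permutation p = 0.0606, adjusted 0.121). Without LPS 3, the tumour with the lowest ratio, it was called (adjusted 0.00606). In the other 15 of 16 alternatives it was not called, with adjusted permutation p up to 0.242. Relative to the endothelial reference, Flt1 stood at 0.464 and 0.428 (exact permutation p = 0.834, adjusted 0.899) and Tek at 0.330 and 0.195 (exact permutation p = 0.271, adjusted 0.433). Without LPS 1 the Tek ratio was called lower (log2 difference -1.13, adjusted 0.0242). Over all 16 alternatives its log2 difference ran from -1.13 to -0.29, with adjusted permutation p up to 0.748.

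The promoter sequences of Vegfa and of the 4 endothelial receptor kinase genes are shown because these genes went different ways in the same libraries. Each run is the 250 bases before the start of the RefSeq gene on GRCm38.p6, 5′ to 3′ on the strand of the gene. Capitals mark GGAA, the core of ETS factor sites, and its reverse complement TTCC. RefSeq promoters were matched for 8 of the 10 genes. Vegfa has a further RefSeq promoter, chr17:46025164-46025413 on the minus strand, and the one shown is that at the start of the table's row. The start of Flt4 in RefSeq lies 416 bases inside the table's row.
Vegfa, chr17:46032378-46032627, minus strand: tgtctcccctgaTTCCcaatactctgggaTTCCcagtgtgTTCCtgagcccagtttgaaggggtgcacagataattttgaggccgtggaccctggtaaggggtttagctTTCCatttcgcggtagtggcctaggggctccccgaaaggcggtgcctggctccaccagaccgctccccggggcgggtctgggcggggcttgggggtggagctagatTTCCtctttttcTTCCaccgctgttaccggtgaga
Kdr, chr5:75978456-75978705, minus strand: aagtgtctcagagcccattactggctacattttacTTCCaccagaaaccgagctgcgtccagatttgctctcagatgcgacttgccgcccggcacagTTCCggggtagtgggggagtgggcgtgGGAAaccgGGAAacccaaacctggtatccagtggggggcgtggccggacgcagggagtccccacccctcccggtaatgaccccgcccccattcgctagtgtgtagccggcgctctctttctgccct
Flt1, chr5:147726012-147726261, minus strand: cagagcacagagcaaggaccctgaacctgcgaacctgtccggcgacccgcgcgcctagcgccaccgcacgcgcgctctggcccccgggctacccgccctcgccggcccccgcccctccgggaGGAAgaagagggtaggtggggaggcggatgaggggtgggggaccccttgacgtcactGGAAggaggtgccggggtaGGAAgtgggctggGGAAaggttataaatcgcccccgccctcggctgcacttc
Flt4, chr11:49609429-49609678, plus strand: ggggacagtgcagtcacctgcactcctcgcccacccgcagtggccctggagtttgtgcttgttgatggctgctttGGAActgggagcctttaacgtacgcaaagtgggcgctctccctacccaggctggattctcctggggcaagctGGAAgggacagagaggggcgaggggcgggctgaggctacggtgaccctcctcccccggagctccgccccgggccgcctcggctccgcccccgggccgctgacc
Tek, chr4:94739039-94739288, plus strand: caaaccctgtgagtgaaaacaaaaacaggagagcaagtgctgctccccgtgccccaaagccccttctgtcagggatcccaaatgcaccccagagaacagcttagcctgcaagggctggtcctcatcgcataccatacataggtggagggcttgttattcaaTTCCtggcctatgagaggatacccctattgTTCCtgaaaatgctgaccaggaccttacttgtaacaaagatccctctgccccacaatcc

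In the windows shown, the letters GGAA occurred on either strand 6 times before Vegfa, 4 times before Kdr, 4 times before Flt1, 2 times before Flt4 and 2 times before Tek, against a median of 3 over 32851 promoters, of which 93.4% hold it. TGGGAA, a core of sites of the Notch effector RBPJ, which contains GGAA, occurred 2 times before Vegfa and 1 time before Kdr and was not found in the other 3 windows, and 21.6% of all promoters hold it. ACGTG or GCGTG, cores of hypoxia response elements, occurred 2 times before Kdr and 1 time before Flt1, and 38.6% of all promoters hold one of them. GGGCGG, the GC box, was found before Vegfa (2), Kdr (2), Flt1 (3) and Flt4 (3) but not Tek, whose window had the lowest GC content of the 5 (51.2%; median of all promoters 52.4%), and 32.7% of all promoters hold it. The further promoter of Vegfa held GGAA 2 times, TGGGAA 2 times, ACGTG or GCGTG 2 times and GGGCGG 1 time. Matches describe letters and do not show that a factor binds.

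**Figure D4:**
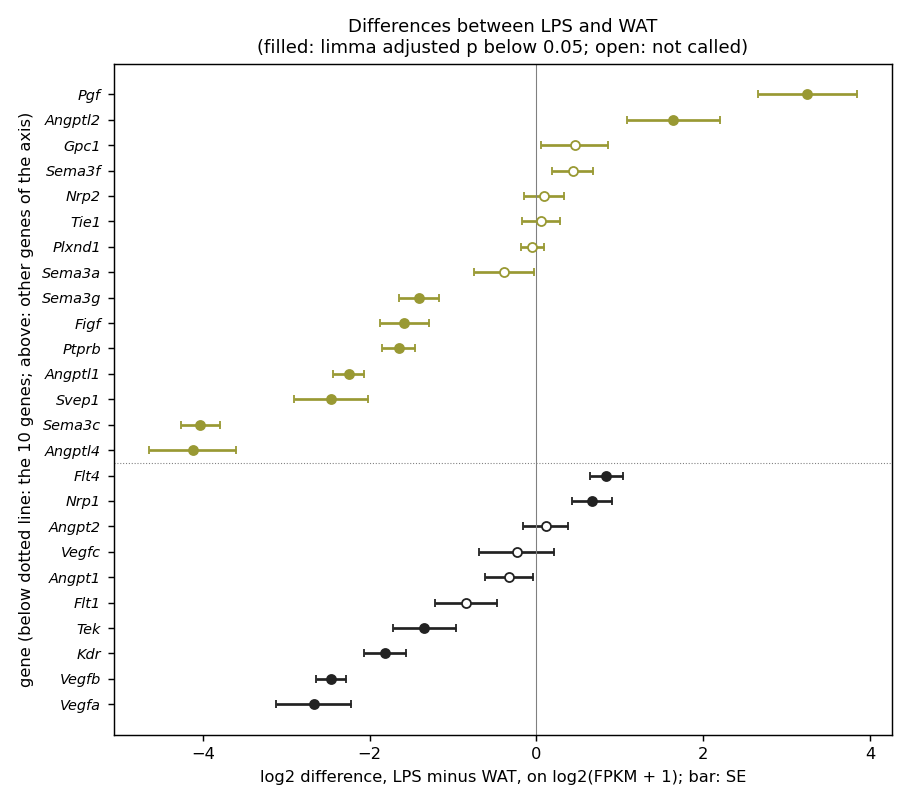
Log2 difference, LPS minus WAT, on log2(FPKM + 1) from limma with its SE, for the 10 genes (black, below the dotted line) and 15 other tested genes of the axis (olive, above it), with filled points for adjusted p below 0.05. Pgf lies farthest to the right at 3.25, and Angptl4 and Sema3c farthest to the left at -4.12 and -4.03.

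Among 15 other tested ligands, receptors and modulators of the axis, 2 were higher and 7 lower in LPS, with a median log2 difference of -0.39. The shares over all tested rows were 18.9% higher and 27.0% lower. Pgf, placental growth factor, a ligand of FLT1, rose from 1.09 ± 0.251 FPKM in WAT to 24.96 FPKM on average in LPS, with 3.00 to 51.3 FPKM in single tumours, all above WAT (log2 difference 3.25 ± 0.60; limma adjusted p = 0.000607). Unlike Vegfa and Vegfb, this ligand of the same receptor was thus higher in tumours. Angptl2, an angiopoietin-like secreted protein, was at 54.3 and 225 FPKM and lost its call without WAT 1, WAT 2, WAT 3 or WAT 4 (limma adjusted p = 0.0596, 0.0646, 0.0685 and 0.0606), which left 1 higher. Angptl4, an inhibitor of lipoprotein lipase made by fat, fell from 154 to 10.1 FPKM. Sema3c, a semaphorin that binds neuropilins, fell from 22.0 to 0.409 FPKM. Plxnd1, a semaphorin receptor of vessels, was not called (39.0 and 37.7 FPKM). Nrp2, the sister gene of Nrp1, and Figf, which encodes VEGFD, were named after their values were seen and had log2 differences of 0.09 (not called) and -1.58 (called).

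Of 15 genes that relay signals from these receptors, 4 were higher and 7 lower, against 18.9% and 27.0% of all tested rows. Their median log2 difference was -0.18. Without WAT 1, WAT 2 or WAT 3, 4 were lower. Src, a cytoplasmic tyrosine kinase, rose from 5.38 to 61.7 FPKM and Akt1, a survival kinase, from 48.2 to 96.8 FPKM. Nos3, the endothelial nitric oxide synthase that KDR signalling activates, fell from 16.6 to 2.81 FPKM, and Dok2, an adaptor that binds TEK, from 9.84 to 2.60 FPKM. Pik3r1, a regulatory subunit of PI3 kinase, was not called (81.1 and 75.7 FPKM).

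Of 15 genes of the VEGF response and of tip cells, the leading cells of vessel sprouts, 3 were higher and 3 lower. All tested rows had 18.9% higher and 27.0% lower, so these counts lie near the background. The median log2 difference was -0.27. Unc5b, a netrin receptor of tip cells, rose from 3.39 to 49.7 FPKM. Igfbp3, a growth factor binding protein, was at 52.5 and 210 FPKM, and its call was lost without WAT 1, WAT 2 or WAT 3 (limma adjusted p = 0.0693, 0.0588 and 0.0528). Robo4, an endothelial guidance receptor, fell from 12.6 to 4.56 FPKM. Aplnr, the apelin receptor, was at 15.7 and 7.83 FPKM. Its call was lost in 12 of 24 alternatives, with limma adjusted p up to 0.114 (without WAT 1). The lower count of the list was 1 without WAT 1, WAT 2, WAT 3, WAT 4, LPS 4 or LPS 7. Lama4, a laminin of vessel walls, was not called (87.4 and 95.6 FPKM).

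Vegfa is a known target of hypoxia inducible factors, and the genes listed for that response were split. The list also holds the factor genes Hif1a, Epas1 and Arnt. Of 19 tested, 7 were higher (4 without WAT 3) and 5 lower, against 18.9% and 27.0% of all tested rows. Their median log2 difference was 0.41. Hif1a was among those called higher, from 29.4 to 67.2 FPKM (limma adjusted p = 0.000184), and Arnt was not called. Hif1a and Arnt were named after their values were seen. Ankrd37 and Egln3, both induced by these factors, rose, Ankrd37 from 2.50 to 36.4 FPKM and Egln3 from 2.81 to 16.4 FPKM. Bnip3, a mitophagy receptor, and Pfkfb3, a glycolytic regulator, fell, Bnip3 from 137 to 15.5 FPKM and Pfkfb3 from 120 to 12.2 FPKM. Epas1, which encodes the factor HIF-2 alpha of endothelial cells, was not called over all libraries (51.6 and 81.1 FPKM; limma adjusted p = 0.133), and was called higher without LPS 5 (0.0234).

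Within LPS, age in months was fitted as a log2 slope over 13280 rows, and Vegfc lay below the filter there. None of the 9 other genes was called, and neither was any row (0% with limma adjusted p below 0.05; 1.72% of rows had an unadjusted p below 0.05). The slope was -0.37 ± 0.13 per month for Kdr, the largest of the 9 genes relative to its SE, and -0.45 ± 0.28 per month for Vegfa, neither of them called.

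The tumours could also be read one by one. LPS 1 had the lowest Vegfa and Kdr and the highest Angpt1 and Tek. LPS 3 had the highest Vegfc, the highest Kdr as deposited and the lowest Flt1 (3.27 FPKM). LPS 6 had the highest Vegfa and Nrp1, and LPS 8 the lowest Angpt2 and Flt4. Over the 8 tumours, the rows most like each gene with a mean of at least 5 FPKM were found by Pearson r of log2(FPKM + 1), as a description over 8 libraries and 8974 rows (8975 for Nrp1). For Nrp1 these were Gm16192 (r = 0.99), Plxdc2 (0.98) and Mtus1 (0.98), of which Gm16192 and Mtus1 share 1 locus in the table. For Flt1 they were Plvap (0.93), a protein of endothelial fenestrae, Fgfr1 (0.91) and Timp1 (0.90). Vegfa was most like Kansl2 (0.94), Flt4 most like Nars (0.88), Angpt1 most like Sulf1 (0.94) and Angpt2 most like Mars (0.95). Kdr was most like Gm22478 (0.96), which lay at 0 FPKM in LPS 1 and LPS 4. Of the 21 rows so found for 7 genes, 4 were found again without LPS 5. They were Kansl2 for Vegfa, Nars for Flt4, and Gm16192 and Plxdc2 for Nrp1. The rows named for Flt1, Angpt1, Angpt2 and Kdr were not found again.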

How the data were processed

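Total RNA from 4 white adipose tissue and 8 liposarcoma libraries was depleted of ribosomal RNA (Ribo-Zero Gold) and made into TruSeq Stranded libraries, per the labels' protocols. The authors deposited 1 FPKM value per row and library. GRCm38 was the build, per the submitters' processing notes, which also list Cuffdiff 2.2.1, Cufflinks 2.2.1, TopHat2 2.1.0, Bowtie2 and Trimmomatic, with roles, settings and further scaling not given in the sources used here. FPKM hold no counts, so a count test was not used. The 10 genes and all gene lists were chosen with earlier results of these data known.

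From the deposited FPKM, log2(FPKM + 1) was computed for the 14821 rows that reached 1 FPKM in 4 or more libraries and tested with limma 3.58.1 (R 4.3.3; empirical Bayes with trend and robust options, group as the only term, two-sided, Benjamini-Hochberg over all rows). A further fit over 13280 rows gave the slope with age within LPS. Ratios within libraries used 0.1 FPKM as pseudocount and exact permutation of the group labels. Genes named beyond the 10 are Pecam1, Cdh5 and Tie1, then from each list the 2 largest called differences each way and the most abundant uncalled gene, and the 3 rows most like each of the 7 genes with a mean of at least 5 FPKM in LPS. Not all of them are printed, and genes outside that rule were named after their values were seen. Lists were described by counts and medians, without a test of the list. The same limma steps were tested on simulated data, with outcomes not reported here. Replicate numbers 1 to 4 occur in both groups, but the deviations of same-numbered libraries from their group means correlated at -0.02, 0.02, 0.09 and 0.03, so libraries were not paired. Alternatives covered the pseudocount, filter, scaling, fit options, a covariate and each library left out. Promoters are RefSeq sequences on GRCm38.p6, and coordinates and overlaps come from the table and GENCODE M21.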

Additional observations from a re-analysis of the deposited data

Results flagged for a closer look

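Of 42 groups of 4 or 8 libraries examined for a library far from the others, 6 had one, and chance gives about 1 in 20. WAT 2 had the lowest Vegfa among WAT libraries, 86.5 FPKM, with the next at 93.7 FPKM. WAT 3 had the highest Tek among WAT libraries, 14.3 FPKM, with the next at 11.3 FPKM. LPS 1 had the highest Tek among tumours, 15.5 FPKM, with the next at 5.39 FPKM, and it also had the highest log2 ratio of Tek to the endothelial reference, 0.28, with the next at -1.80. LPS 3 had the lowest log2 ratio of Flt1 to Kdr among tumours, -2.09, and the lowest log2 ratio of Flt1 to the endothelial reference, -2.93, with the next at -0.46 and -1.56.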

How the results depend on the processing

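The calls of Vegfa, Vegfb, Kdr and Flt4 were kept under every alternative run. With the libraries left out one at a time, the number of the 10 genes called higher ranged from 1 to 2, and it was 1 without a filter on low values and with exact permutation per row, Nrp1 being the gene lost (adjusted p = 0.0563 and 0.0544). The number called lower was 4 to 5. Over all rows, 5058 to 8671 were called against 6813, 2156 to 4182 higher and 2902 to 5387 lower. With replicate numbers 1 to 4 as a block, 2 of the 10 genes were higher and 4 lower, Tek losing its call (adjusted p = 0.0637) and Flt1 gaining one (0.00973). Flt1 was also called with array quality weights (0.0146) and with replicates 1 to 4 alone, a choice made after seeing the data (0.00252).

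Signs turned for uncalled values near 0, and the cause was not tested. Vegfc was 0.081 after quantile normalization and 0.11 with the block or replicates 1 to 4 alone, Tie1 was -0.095 in both, and Lyz2 was -0.10 in both and -0.00047 with the Xist level as a covariate. Plxnd1 was 0.00017 after median-ratio scaling, 0.045 after quantile normalization and 0.0046 with weights, and Pik3r1 was 0.015 after quantile normalization. Flt1 over the reference was 0.35 against Pecam1 and 0.29 against Cdh5. With 1 library left out, values ran from -0.0028 to 0.19 for Tie1, -0.14 to 0.049 for Plxnd1, -0.11 to 0.17 for Lama4, -0.16 to 0.23 for Lyz2, -0.22 to 0.13 for Flt1 over the reference and -0.28 to 0.18 for Vegfa over Vegfb. Of the 21 rows most like a gene, 4 were found again without LPS 5. Without fragment totals, values near that of a few fragments, such as Vegfc in LPS 4, carry no interval.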

Other observations

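Macrophage markers, which accompany vessel growth in many tissues, were mixed. Of 10 tested, 5 were higher and 1 lower in LPS (3 higher with the replicate block), with a median log2 difference of 1.01. The shares over all tested rows were 18.9% higher and 27.0% lower. The complement genes C1qa and C1qb, made by tissue macrophages, rose, C1qa from 60.2 to 161 FPKM and C1qb from 34.3 to 102 FPKM, and the scavenger receptor gene Cd163 fell from 10.8 to 2.13 FPKM. Lyz2 was not called (83.2 and 90.6 FPKM). The summed level lay between 247 and 347 FPKM in WAT and between 291 and 1012 FPKM in tumours, highest in LPS 1, the tumour with the highest Tek. Whether these levels bear on Tek was not tested.

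Pericyte markers, genes of the cells that wrap capillaries and that angiopoietin 1 comes from in many tissues, were higher in 10 of 12 with a median log2 difference of 4.27, while Angpt1 itself was not called. All tested rows had 18.9% higher and 27.0% lower. Rgs5, a regulator of G protein signalling, rose from 77.5 to 2957 FPKM and Pdgfrb, the receptor for PDGFB, from 23.0 to 436 FPKM. Pdgfb, its ligand from endothelial cells, was at 13.6 and 7.73 FPKM, called lower by a narrow margin (limma adjusted p = 0.0478). These 3 genes were named after their values were seen.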
